A study of Rattus norvegicus with 18 samples.

Results

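The genes described here encode the fibrous scaffold of the extracellular matrix: collagens, laminins, elastic fibre and microfibril proteins, lysyl oxidases, fibronectin with its matricellular partners, and 4 small leucine-rich proteoglycans. They were chosen by gene symbol. The rule found 62 genes with 1 transcript cluster each, out of 36685 clusters on the array, of which 14824 carry exactly 1 gene symbol (14557 different symbols). By role they were 9 fibrillar collagens, 6 basement membrane and network collagens, 16 other collagens, 8 laminins, 8 elastic fibre and microfibril genes, 5 lysyl oxidases, 6 fibronectin and matricellular genes and 4 proteoglycans. Col5a1, Lama4, Tnc and Thbs1 of the same families were not analysed here.

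Fibrillar collagens such as types I, III and V assemble outside the cell into the fibres that carry tension in the heart wall, and lysyl oxidases cross-link them. Type IV collagen and the laminins form the basement membrane around each myocyte and vessel, while elastin is laid down on fibrillin microfibrils with the help of fibulins. In the heart most fibrillar matrix is made by fibroblasts, and its accumulation is a known feature of remodelling under mechanical load.

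Ventricular cells of newborn Wistar rats were cultured for 3 days and profiled in 6 groups of 3 arrays. In the stretch experiment, cells lay on collagen IV-coated flexible membranes. They received 24 h of cyclic biaxial stretch with 10 µM KB-R7934 (ST with NCXI), the same stretch alone (ST), or stayed unstretched (static control). KB-R7934 blocks calcium entry through the sodium-calcium exchanger (NCX) running in reverse. In the tachycardia experiment, cells on gelatin-coated dishes were paced for 3 h at 8 Hz with 10 µM KB-R7934 (TC with NCXI), at 8 Hz alone (TC), or at 1 Hz (1 Hz control). The labels give the stretch as 20%, while the study's methods state another value. The culture was enriched in myocytes by pre-plating and bromodeoxyuridine and was not pure. No array held inhibitor without a trigger. The paper does not exclude that the inhibitor also acted on other targets, such as TRP, calcium and potassium channels. Its name is printed as in the labels, and parts of the paper spell it another way. The labels call the 3 samples of a group biological replicates, and the RNA on an array came from 2 to 6 pooled technical replicates.

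Values are log2 signals per cluster. Probes differ in their response, so the percentiles given here describe how bright a cluster was and do not order genes by RNA amount. The 8 measured cardiomyocyte markers (Tnnt2, Tnni3, Myh6, Myh7, Myl7, Pln, Nppa, Des) all lay at or above percentile 97.4 of clusters, while the 10 measured fibroblast markers outside the matrix list ran from percentile 38.6 (Fap) to 99.7 (Mgp), and the 8 measured endothelial markers between 36.7 (Emcn) and 63.1 (Flt1). Of the 62 matrix genes, 30 had a mean signal above the upper quartile of all clusters, 19 lay between the median and the upper quartile, 12 between the lower quartile and the median, and Col28a1 lay below the lower quartile. In bulk RNA, fewer cells of a type and less RNA per cell cannot be told apart.

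Replicate 1 stood apart in the stretch experiment. Its array was the highest of 3 for 35 of the 62 genes in ST with NCXI, for 47 in ST and for 49 in the static control, while over all clusters it was the highest in 35.5%, 33.9% and 32.6%. The arrays of ST replicate 1 and static control replicate 1 carried 4 pooled technical replicates, and the other 7 arrays of that experiment 2. In the tachycardia experiment the array of replicate 1 was the highest for 15 genes in TC with NCXI (24.2%), 24 in TC (38.7%) and 22 in the 1 Hz control (35.5%). Over all clusters it was the highest in 39%, 37.3% and 34.3%.

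The heat map of all 62 genes shows this along with the group differences.

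**Figure D1:**
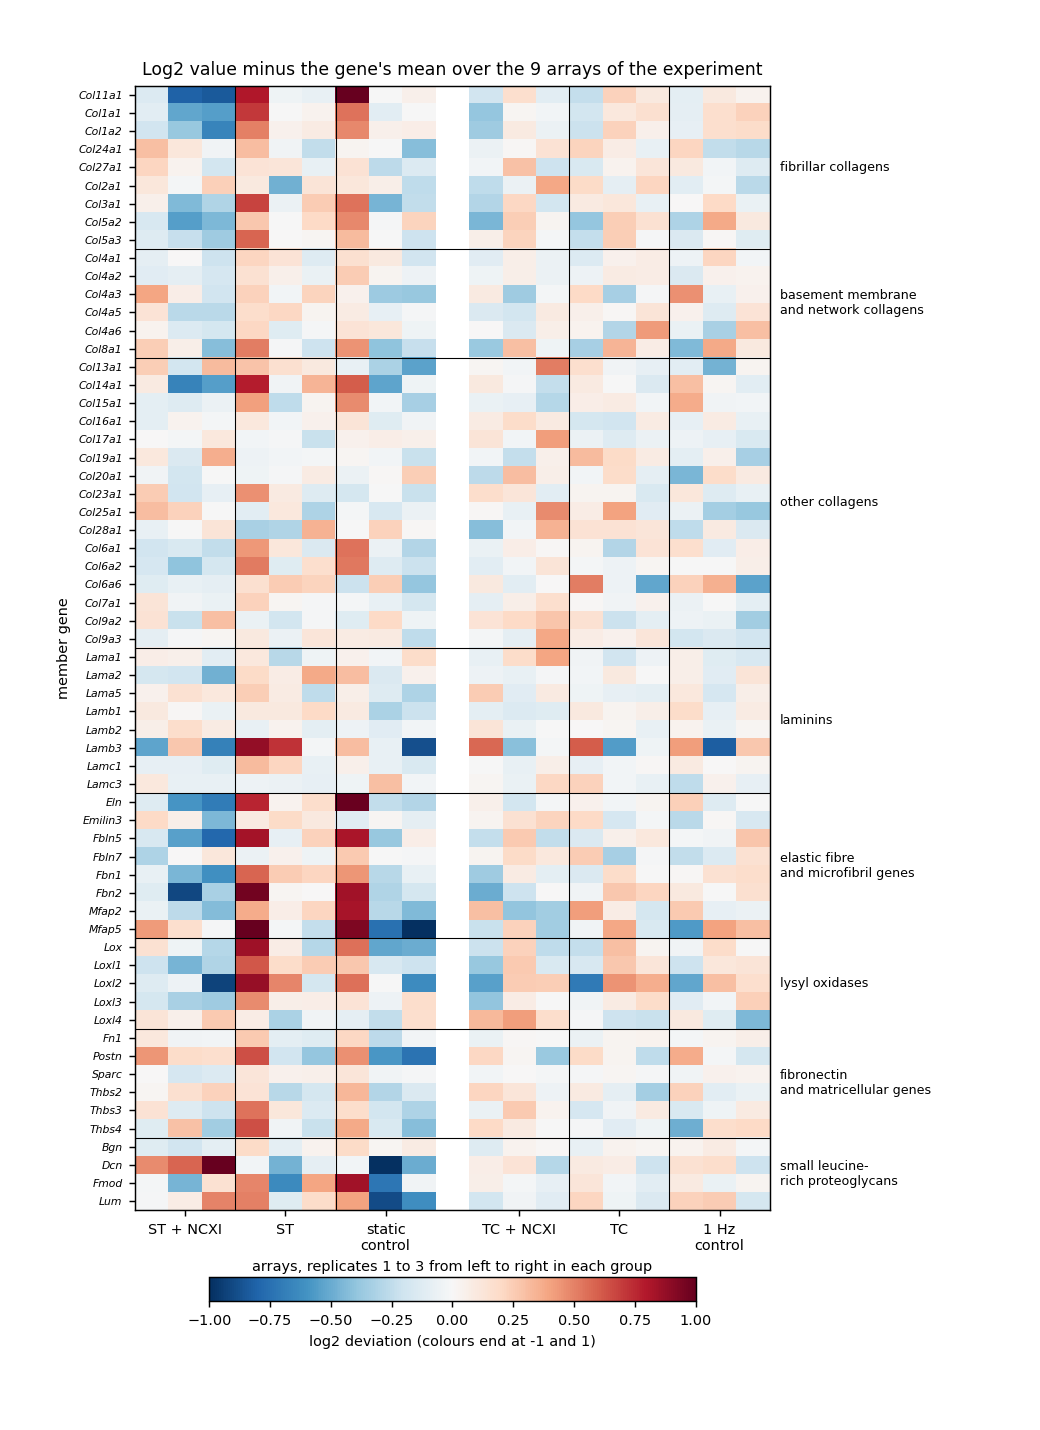
Each row is 1 of the 62 matrix genes, ordered by role, and each column 1 array. Colour gives the log2 value minus the gene's mean over the 9 arrays of its experiment. In the stretch experiment the leftmost columns of ST and of the static control, replicate 1, are mostly red, and blue prevails in ST with NCXI among fibrillar collagens, elastic fibre genes and lysyl oxidases. In the tachycardia experiment the colours are paler.

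Promoter sequence is shown for 4 genes on which the results below turn, and for a pair that shares its upstream region. RefSeq windows of GRCr8, from 250 bases before to 50 after a start site, were matched for 47 of the 62 genes. Col1a2, Fbn1 and Loxl1 were the lower genes of ST with NCXI against ST that passed the study threshold under every alternative, and Lum had the largest difference between the control cultures. The bases before the annotated start site follow, 5′ to 3′ on the gene's strand, with capitals for the motifs searched on both strands, namely CCAAT (the CCAAT box), GGGCGG (the GC box), GGAATG (the core bound by TEAD factors), TGANTCA (bound by AP-1), CAGACA (bound by SMAD factors), TATAAA (the TATA box) and the CArG box. None of the printed matches overlaps another.
Col1a2, chr4:33518307-33518556, plus strand: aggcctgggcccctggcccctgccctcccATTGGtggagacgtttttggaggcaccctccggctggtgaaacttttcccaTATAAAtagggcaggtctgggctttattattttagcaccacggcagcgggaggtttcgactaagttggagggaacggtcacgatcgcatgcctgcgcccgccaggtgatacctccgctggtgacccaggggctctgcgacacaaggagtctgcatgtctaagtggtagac
Fbn1, chr3:133203391-133203640, minus strand: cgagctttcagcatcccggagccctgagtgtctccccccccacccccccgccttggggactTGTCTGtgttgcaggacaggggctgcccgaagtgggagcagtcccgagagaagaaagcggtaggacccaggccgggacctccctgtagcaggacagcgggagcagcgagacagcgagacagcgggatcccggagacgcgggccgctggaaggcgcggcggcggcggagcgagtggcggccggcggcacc
Loxl1, chr8:67612225-67612474, minus strand: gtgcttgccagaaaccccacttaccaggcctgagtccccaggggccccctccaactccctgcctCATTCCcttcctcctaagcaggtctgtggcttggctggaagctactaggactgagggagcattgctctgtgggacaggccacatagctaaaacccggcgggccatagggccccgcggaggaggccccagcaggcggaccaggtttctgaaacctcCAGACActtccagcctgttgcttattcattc
Lum, chr7:34245456-34245705, plus strand: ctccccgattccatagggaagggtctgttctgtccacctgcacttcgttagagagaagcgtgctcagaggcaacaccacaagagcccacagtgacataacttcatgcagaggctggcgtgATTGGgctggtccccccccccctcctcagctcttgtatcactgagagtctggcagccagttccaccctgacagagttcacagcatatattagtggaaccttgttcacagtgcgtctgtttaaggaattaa
The type IV collagen genes Col4a1 and Col4a2 lie head to head, and the 76 bases between their start sites, chr16:84885521-84885596 on the plus strand, were: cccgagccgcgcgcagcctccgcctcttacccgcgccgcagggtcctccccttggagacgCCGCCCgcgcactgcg

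Over the 300-base windows, GGGCGG occurred in 26 of the 47 matrix genes (55.3%) and in 36.0% of all 27457 genes with a window, GGAATG in 12 (25.5%) and 15.03%, CAGACA in 12 (25.5%) and 22.2%, CCAAT in 17 (36.2%) and 39.6%, TATAAA in 4 (8.51%) and 15.3%, TGANTCA in 1 (2.13%) and 8.04%, and the CArG box in 1 (2.13%) and 1.77%. A match describes these letters and is not a binding site. Besides Col4a1 with Col4a2, the pairs Col6a1 with Col6a2, Dcn with Lum and Col3a1 with Col5a2 are direct neighbours among RefSeq protein-coding genes, and their values are set side by side below.

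Addition of the NCX inhibitor to stretched cells was the comparison in which most matrix genes moved within an experiment. In ST with NCXI, 47 of the 62 genes had a lower mean than in ST and 15 a higher one, with a median log2 difference of -0.16, against 0.008 over all clusters. At the study threshold, an unadjusted limma p under 0.05 with a change of at least 1.2-fold, 13 of 62 were lower (21.0%), against 4.52% of all clusters and 5.67% of clusters with 1 symbol, and Dcn alone was higher, against 4.6% of all clusters. The 3 ST with NCXI arrays lay wholly below the 3 ST arrays for 19 genes (30.6%), against 7.3% of all clusters. No matrix gene had an adjusted p under 0.05 over all clusters, the lowest being 0.25 for Loxl1, while 14 had an unadjusted p under 0.05. The 13 lower genes were 5 fibrillar collagens, Col14a1, 2 laminins, 3 elastic fibre genes and 2 lysyl oxidases.

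Among the 9 fibrillar collagens, 5 were lower at the study threshold and the median difference was -0.52. Col1a1, the α1 chain of type I collagen, had log2 values of 9.93, 9.51 and 9.48 in ST with NCXI, against 10.74, 10.03 and 10.06 in ST. Its difference was -0.64 (SE 0.24, 1.56-fold lower, adjusted p = 0.445). Col1a2, which encodes the α2 chain of the same trimer, had 10.78, 10.58 and 10.31 in ST with NCXI, against 11.47, 11.01 and 11.04 in ST, a difference of -0.62 (SE 0.18, 1.53-fold lower, adjusted p = 0.328). For both genes every ST with NCXI array lay below every ST array, and replicate 1 was the highest of its group.

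Col11a1, a minor fibrillar collagen that helps to set fibril diameter, had 6.40, 5.73 and 5.70 in ST with NCXI, against 7.34, 6.50 and 6.46 in ST (difference -0.82, SE 0.34, adjusted p = 0.492). Col5a2 and Col5a3, chains of the type V collagen that nucleates type I fibrils, differed by -0.54 (SE 0.16) and -0.44 (SE 0.19), each with no overlap of the groups. Col3a1, the reticular fibre collagen and neighbour of Col5a2, had 9.85, 9.35 and 9.49 in ST with NCXI, against 10.47, 9.74 and 10.05 in ST, which overlap, and a difference of -0.52 (SE 0.28) that did not pass. Col24a1, Col27a1 and Col2a1 stood between -0.04 and 0.19.

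The elastic fibre and microfibril genes had lower means in all 8 cases, with a median of -0.60 and 3 past the study threshold. Fbn1, fibrillin-1 and the main microfibril protein, had 9.67, 9.28 and 9.12 in ST with NCXI, against 10.32, 9.99 and 9.96 in ST. The groups did not overlap, and the difference was -0.73 (SE 0.21, 1.66-fold lower, adjusted p = 0.31). Fbln5, a fibulin that places elastin on microfibrils, had 7.88, 7.49 and 7.25 in ST with NCXI, against 8.87, 7.96 and 8.27 in ST (difference -0.82, SE 0.33, adjusted p = 0.467).

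Eln, elastin itself, had 7.19, 6.73 and 6.62 in ST with NCXI, against 8.09, 7.36 and 7.50 in ST (difference -0.80, SE 0.35, adjusted p = 0.513). In all 3 genes the ST with NCXI arrays lay wholly below those of ST. Fbn2, the second fibrillin, differed by -0.78 (SE 0.37) and the microfibril-associated Mfap2 by -0.47 (SE 0.29), both without overlap and neither past the threshold. Emilin3, Fbln7 and Mfap5 stood at -0.19, -0.04 and -0.08.

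Of the 5 lysyl oxidases, 2 were lower. Loxl1, which cross-links elastin, had 9.32, 9.06 and 9.23 in ST with NCXI, against 10.15, 9.71 and 9.78 in ST, with a difference of -0.68 (SE 0.17, 1.60-fold lower). Loxl3 differed by -0.49 (SE 0.14, adjusted p = 0.307). For Loxl2 the difference was -0.76, but the arrays overlapped at 8.02, 8.10 and 7.22 in ST with NCXI, against 9.02, 8.63 and 7.97 in ST (SE 0.37), and it did not pass. Lox, lysyl oxidase itself, stood at -0.27 (SE 0.35) and Loxl4 at 0.24 (SE 0.15).

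The basement membrane genes differed by less. All 6 basement membrane and network collagens had lower means in ST with NCXI, with differences from -0.27 to -0.06, and none passed. Col8a1, a network collagen of vessels, stood at -0.14 (SE 0.27). The head-to-head genes Col4a1 and Col4a2 differed by -0.17 (SE 0.14) and -0.17 (SE 0.11). Among 8 laminins, the chains that give the basement membrane its network, 2 were lower.

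Lama2, the α2 chain of the laminin typical of muscle, had 8.49, 8.48 and 8.19 in ST with NCXI, against 8.87, 8.74 and 9.05 in ST, without overlap (difference -0.50, SE 0.15, adjusted p = 0.334). Lamb3, a β chain known from epithelia, had 5.65, 6.44 and 5.50 against 7.05, 6.90 and 6.15 in ST, which overlap (difference -0.84, SE 0.36, adjusted p = 0.514). Lamc1, the γ chain of most laminins, differed by -0.24 (SE 0.12) and Lamb2 by 0.15 (SE 0.09), each without overlap and neither past the threshold. Lama5 and Lamb1 stood at 0.07 (SE 0.15) and -0.12 (SE 0.12).

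Of the 16 other collagens only Col14a1 passed, a fibril-associated collagen, with 8.55, 7.79 and 7.91 in ST with NCXI, against 9.25, 8.42 and 8.80 in ST, overlapping in 1 array (difference -0.74, SE 0.32, adjusted p = 0.515). The neighbours Col6a1 and Col6a2, chains of the microfibrillar type VI collagen, differed by -0.33 (SE 0.22) and -0.44 (SE 0.22), both without overlap and neither past the threshold. Fibronectin (Fn1) and the matricellular genes held no call: Fn1 stood at -0.0011 (SE 0.15), Sparc at -0.17 (SE 0.10) and Postn, periostin, at 0.24 (SE 0.34).

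Decorin (Dcn), a proteoglycan that binds collagen fibrils and TGF-beta, was the gene that went the other way. It had 9.75, 9.86 and 10.40 in ST with NCXI, against 9.25, 8.80 and 9.18 in ST, wholly above, with a difference of 0.92 (SE 0.27, 1.90-fold higher, adjusted p = 0.316). Its chromosomal neighbour Lum, lumican, had 7.46, 7.54 and 7.97 against 7.98, 7.35 and 7.65 in ST and a difference of -0.0016 (SE 0.32). The related Fmod and Bgn differed by -0.19 (SE 0.41) and -0.18 (SE 0.11).

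**Figure D2:**
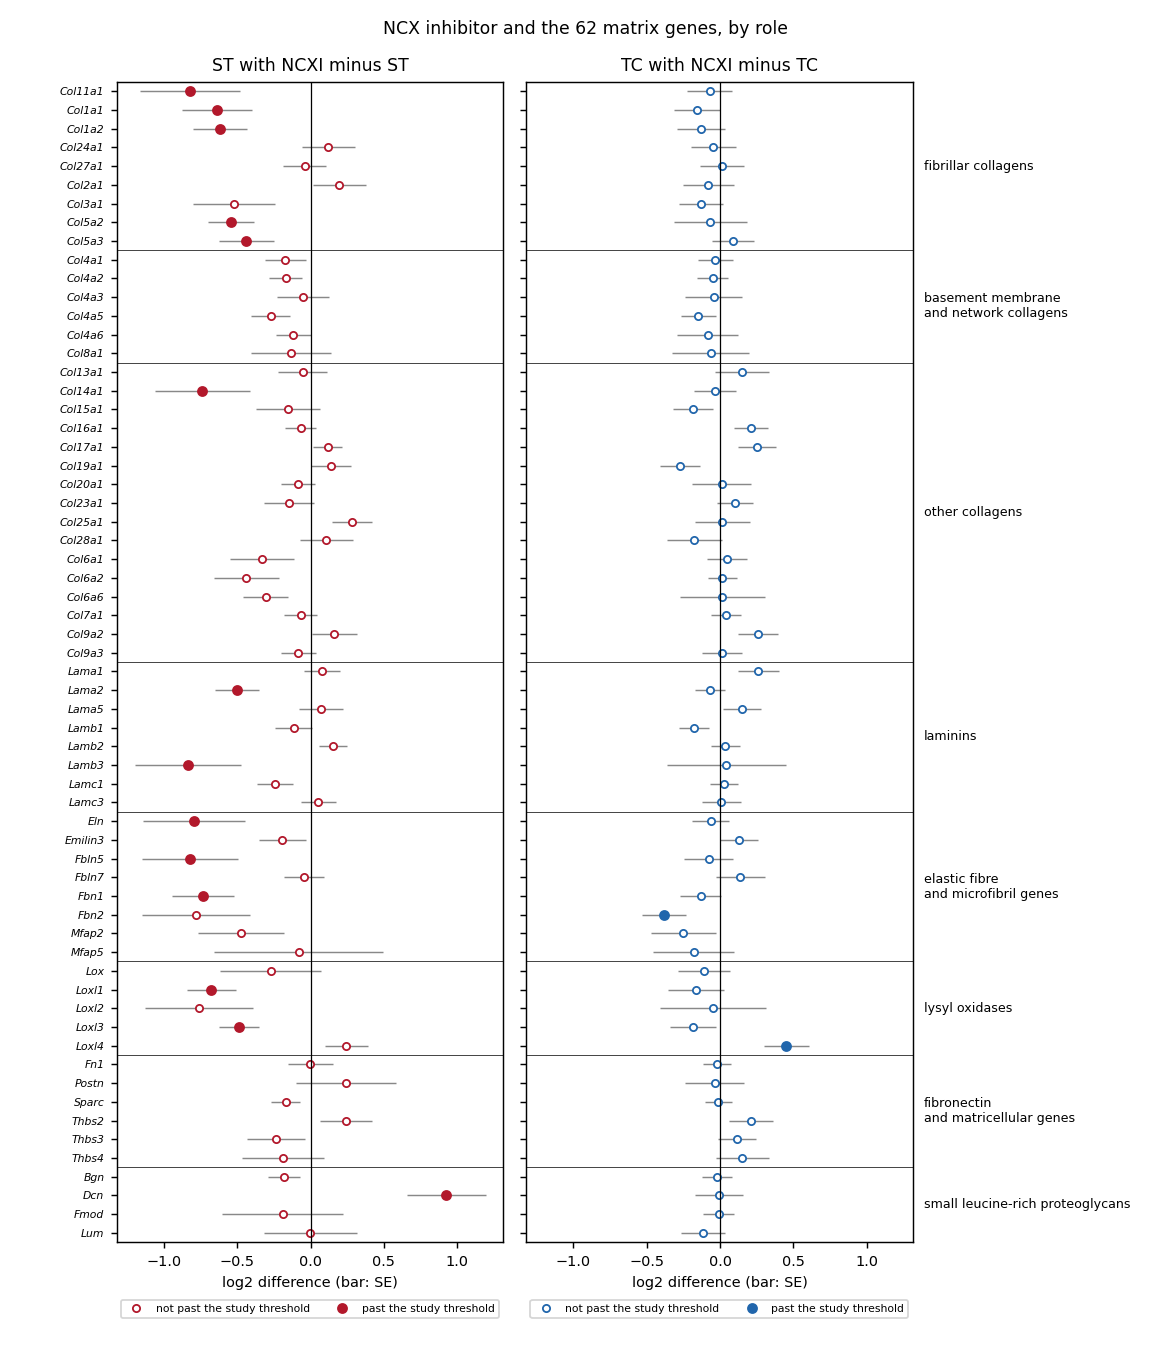
Each point is the log2 difference of 1 of the 62 matrix genes, with its SE as a bar, filled where it passed the study threshold. Left, ST with NCXI minus ST; right, TC with NCXI minus TC, on the same scale. On the left 13 filled points lie below 0 and Dcn above it; on the right the filled points are Fbn2 at -0.38 and Loxl4 at 0.45.

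The count of lower genes depended on single arrays. It was 6 without ST replicate 1, against 4.24% of all clusters, 6 without ST with NCXI replicate 3, against 3.37%, and 7 without ST with NCXI replicate 2, against 4.16%. With replicate 1 left out of all 3 groups, a setting chosen after the arrays were seen, it was 15, against 4.71%. Without ST replicate 1 the calls of Col1a1, Col11a1, Col5a3, Col14a1, Lamb3, Eln and Fbln5 were lost, and the difference was -0.41 for Col1a1, -0.54 for Col11a1 and -0.25 for Col5a3. The same genes lost their calls without ST with NCXI replicate 3 and, apart from Lamb3, without ST with NCXI replicate 2. Lamb3 stood at -0.55 with replicate 1 left out of all 3 groups. Of the 14 genes past the threshold, 4 (Col1a2, Fbn1, Loxl1 and Dcn) passed under all 11 other settings and without each array, while Col5a2, Lama2 and Loxl3 passed without each array and under 10 of the 11.

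Genes that serve collagen synthesis and are not matrix proteins themselves also had lower values. Of 17 measured genes for folding, hydroxylation and processing, 16 had lower means in ST with NCXI and 6 passed, with a median of -0.23. They were Serpinh1, the collagen chaperone (-0.39, SE 0.12), the prolyl hydroxylases P4ha1 (-0.36, SE 0.15) and P3h1 (-0.38, SE 0.11), P3h4 (-0.47, SE 0.14), Fkbp14 (-0.43, SE 0.14) and the secretory transcription factor Creb3l1 (-0.49, SE 0.17), all 6 with ST with NCXI arrays wholly below ST arrays. Of 10 measured genes of TGF-beta and mechanical signalling, 5 were lower, Ccn1 most of all at -0.96 (SE 0.15, adjusted p = 0.097), followed by Tgfb3 at -0.53 (SE 0.19), Tagln at -0.52 (SE 0.23), Ccn2 at -0.45 (SE 0.20) and Ankrd1 at -0.38 (SE 0.13), and the co-receptor Tgfbr3 was higher at 0.43 (SE 0.18).

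Markers of cell types moved in the same comparison. All 6 measured proliferation markers were lower at the study threshold (median -0.78), with array medians of the log2 deviation from each gene's mean between -0.75 and -0.13 in ST with NCXI and between 0.10 and 0.67 in ST. Of 10 macrophage and leukocyte markers 7 were lower (median -0.98; array medians -0.88 to -0.39 in ST with NCXI, -0.19 to 1.31 in ST), Lyz2 at -2.59. Of 10 fibroblast markers outside the matrix list none was lower and Mgp was higher at 0.36 (median -0.19; array medians -0.13 to 0.07 in ST with NCXI, -0.08 to 0.32 in ST). Of 8 cardiomyocyte markers Tnni3 alone was higher (median 0.06). The 10 leukocyte markers lay between percentiles 46.2 (C1qb) and 88.5 (Cd68) of clusters. Their part in the matrix result was not tested.

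**Figure D3:**
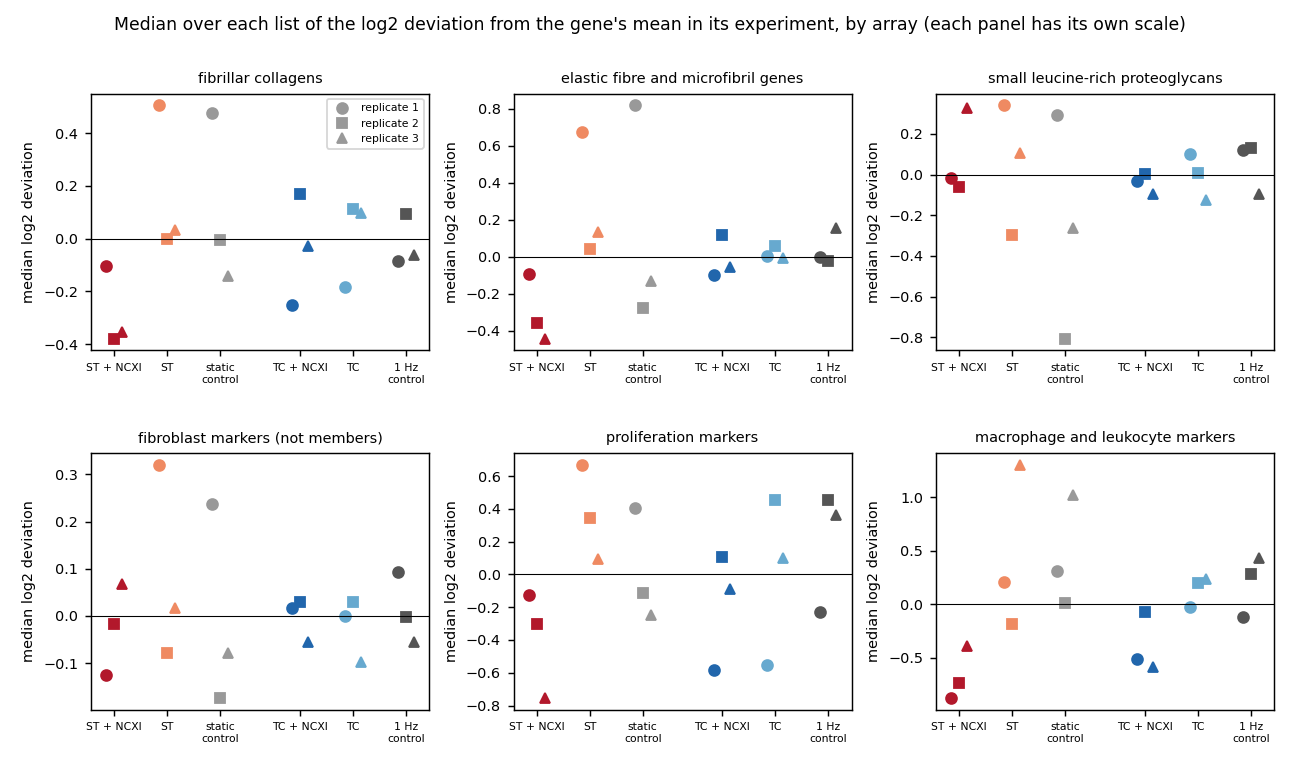
Each point is the median over a gene list, on 1 array, of the log2 deviation from each gene's mean over its experiment, with the replicate number as symbol. In ST with NCXI, fibrillar collagens (-0.38 to -0.10) and elastic fibre genes (-0.44 to -0.10) lie below ST, and so do the proliferation and leukocyte markers, while fibroblast markers overlap.

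Stretch alone was compared with static culture to ask how load changes the matrix genes. Means were higher in ST for 46 of the 62 genes and lower for 16, with a median of 0.14, against -0.005 over all clusters. Only 2 were higher at the study threshold (3.23%), against 3.12% of all clusters, and none was lower, against 4.33%. No adjusted p was below 0.51. With the replicate number as a block, an alternative to this unpaired fit, 9 genes were higher (14.5%), and 4.35% of all clusters were.

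Col13a1, a transmembrane collagen, had 5.98, 5.85 and 5.79 in ST, against 5.62, 5.37 and 5.16 in the static control, wholly above (difference 0.49, SE 0.17, 1.41-fold higher). Loxl1 had 10.15, 9.71 and 9.78 in ST, against 9.80, 9.36 and 9.32 in the static control, where the groups overlap although each ST array exceeds the control of the same number (difference 0.39, SE 0.17, 1.31-fold higher). The block added Col3a1 (0.35), Col4a3 (0.38), Col14a1 (0.35), Lamb3 (0.74), Fbn1 (0.32), Loxl2 (0.42) and Thbs3 (0.28), with a lowest adjusted p of 0.31.

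The type I collagen genes did not stand apart. Col1a1 differed by 0.10 (SE 0.24) and Col1a2 by 0.01 (SE 0.18), with 95% intervals of -0.44 to 0.64 and -0.41 to 0.43. Eln stood at 0.18 (SE 0.35), Fn1 at 0.04 (SE 0.15), Postn at 0.31 (SE 0.34) and Lum at 0.56 (SE 0.32). Lamb1, the β1 laminin chain, had 9.47, 9.47 and 9.58 in ST, against 9.46, 9.06 and 9.16 in the static control, wholly above by 0.28 (SE 0.12) without passing. Among the other genes, Lox stood at 0.37 (SE 0.35), Loxl2 at 0.42 (SE 0.37), Dcn at 0.33 (SE 0.27), Fbln5 at 0.16 (SE 0.33), Col8a1 at 0.16 (SE 0.27), Lama2 at 0.15 (SE 0.15), Lama5 at 0.15 (SE 0.15), Lamc1 at 0.21 (SE 0.12) and Col6a1 at 0.07 (SE 0.22). Near 0 were Col4a1 (0.05, SE 0.14), Col4a2 (-0.03, SE 0.11), Sparc (0.04, SE 0.10), Bgn (-0.06, SE 0.11) and Fmod (0.05, SE 0.41). All of these overlapped between the groups. Static control replicate 1 bore on these values: without it 13 genes were higher in ST, against 4.55% of all clusters, among them Lum (0.94), Mfap5 (1.45), Col3a1 (0.65) and Fbn1 (0.53), and without ST replicate 1 or static control replicate 3 none was.

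Setting ST with NCXI against static control shares arrays with both comparisons above. Here 2 genes were higher, against 4.79% of all clusters, and 5 lower, against 5.38%. The 5 lower genes were Col11a1 (-0.96, SE 0.34), Col5a2 (-0.62, SE 0.16), Col1a2 (-0.61, SE 0.18), Loxl3 (-0.37, SE 0.14) and Lama2 (-0.35, SE 0.15). For Col1a2 the control arrays were at 11.44, 11.02 and 11.03, all above those of ST with NCXI. Col1a1 differed by -0.54 (SE 0.24), short of the threshold. Its groups nearly touched, with the highest ST with NCXI array at 9.9265 and the lowest static control array at 9.9271.

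Dcn, with 9.25, 8.22 and 8.78 in the static control, was higher in ST with NCXI by 1.25 (SE 0.27, 2.38-fold, adjusted p = 0.138), and Col13a1 by 0.44 (SE 0.17). The adjusted limma p of Dcn was 0.022 with all 18 arrays in the fit and 0.046 over clusters with 1 symbol, and that of Col11a1 was 0.042 with the replicate block. Fbn1 differed by -0.41 (SE 0.21), Eln by -0.62 (SE 0.35) and Fbln5 by -0.67 (SE 0.33), none past the threshold. Biglycan (Bgn) lay at -0.24 (SE 0.11), its arrays wholly below the control without passing, and Postn at 0.55 (SE 0.34). Lamb2 was wholly above the control at 0.17 (SE 0.09), short of the threshold. Values that overlapped were Lum at 0.56 (SE 0.32), Col3a1 at -0.17 (SE 0.28), Loxl2 at -0.34 (SE 0.37), Lox at 0.10 (SE 0.35), Col6a1 at -0.26 (SE 0.22), Lama5 at 0.22 (SE 0.15), Lamb1 at 0.16 (SE 0.12), Fn1 at 0.04 (SE 0.15), Sparc at -0.12 (SE 0.10) and Fmod at -0.14 (SE 0.41). Among basement membrane genes Col4a1 stood at -0.12 (SE 0.14), Col8a1 at 0.02 (SE 0.27), Lamc1 at -0.04 (SE 0.12) and Col4a2, wholly below, at -0.20 (SE 0.11).

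Other lists moved in this comparison too. Of the 17 collagen synthesis and processing genes 6 were lower and P3h2 was higher, with a median of -0.20, and of the 10 TGF-beta and mechanical signal genes 3 were lower and 1 higher, Ccn1 lying at -0.98 (SE 0.15, adjusted p = 0.054). All 10 leukocyte markers had lower means in ST with NCXI than in the static control and 6 passed (median -0.92), while 1 of 6 proliferation markers was lower (median -0.40), none of 10 fibroblast markers passed, and Tnni3 was higher among 8 cardiomyocyte markers. Their part in the matrix values was not tested.

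Rapid pacing left the matrix genes close to the 1 Hz control. In TC 29 genes had a higher mean and 33 a lower one, the median difference was -0.003, and the median size of a difference was 0.06, against 0.11 over all clusters. Col19a1, one of the other collagens, was the only gene past the threshold, higher at 0.32 (SE 0.14), with 4.27, 4.15 and 4.03 in TC, against 3.86, 4.00 and 3.63 in the 1 Hz control. That is 1 of 62 higher, against 2.09% of all clusters, and none lower, against 1.82%, and the call ended under 7 of 11 other settings. Its cluster was dim, as the lower quartile of all clusters lay between 3.76 and 3.81 on these arrays.

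Differences in TC were -0.07 for Col1a1 (SE 0.16), -0.07 for Col1a2 (SE 0.16), -0.10 for Fbn1 (SE 0.14), -0.02 for Eln (SE 0.12) and -0.06 for Dcn (SE 0.16). The other genes named throughout stood between -0.10 for Lum (SE 0.15) and 0.06 for Col4a2 (SE 0.10), and all overlapped. Fn1 had 12.15, 12.24 and 12.24 in TC, against 12.19, 12.24 and 12.27 in the 1 Hz control. The 95% intervals of the 62 differences had a median reach of 0.34 to either side, from 0.20 to 0.92.

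The inhibitor during pacing had 1 matrix gene higher, against 3.27% of all clusters, and 1 lower, against 2.5%. With the replicate block 1 was higher, against 4.19% of all clusters, and 1 lower, against 3.67%. Loxl4, a lysyl oxidase, had 7.18, 7.27 and 7.03 in TC with NCXI, against 6.84, 6.65 and 6.63 in TC, wholly above (difference 0.45, SE 0.15, 1.37-fold higher, adjusted p = 0.75). Fbn2 had 6.15, 6.44 and 6.65, against 6.61, 6.92 and 6.86 in TC, overlapping in 1 array (difference -0.38, SE 0.15, adjusted p = 0.79). Genes that were lower with the inhibitor in stretched cells stood nearer 0 here, Col1a1 at -0.16 (SE 0.16), Col1a2 at -0.13 (SE 0.16), Col11a1 at -0.07 (SE 0.15), Fbln5 at -0.08 (SE 0.17) and Eln at -0.06 (SE 0.12), while Dcn stood at -0.01 (SE 0.16). Among genes brighter than the median of all clusters, 3 did not overlap yet had no call. They were Thbs4 at 0.15 (SE 0.18), wholly above, and Col15a1 at -0.19 (SE 0.14) and Lamb1 at -0.18 (SE 0.10), wholly below. Over all 62 genes 3 lay wholly above and 3 wholly below. Lum stood at -0.12 (SE 0.15), Lox at -0.11 (SE 0.18), Col3a1 at -0.13 (SE 0.15), Fbn1 at -0.13 (SE 0.14), Lama5 at 0.15 (SE 0.13) and Fn1 at -0.02 (SE 0.09).

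Against the 1 Hz control, TC with NCXI had 2 genes higher, Loxl4 at 0.46 (SE 0.15) and Col9a2 at 0.36 (SE 0.14), against 4.7% of all clusters, and none lower, against 3.95%. Col15a1 at -0.25 (SE 0.14) and Lamb1 at -0.18 (SE 0.10) were wholly below the control without passing. Col1a1 stood at -0.23 (SE 0.16), Col1a2 at -0.20 (SE 0.16), Fbn1 at -0.24 (SE 0.14), Lum at -0.21 (SE 0.15) and Dcn at -0.06 (SE 0.16). Among cell type lists, 4 of 10 leukocyte markers were lower in TC with NCXI than in TC (median -0.53), and none of 6 proliferation markers was (median -0.19).

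The plot of single arrays sets these genes side by side in both experiments.

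**Figure D4:**
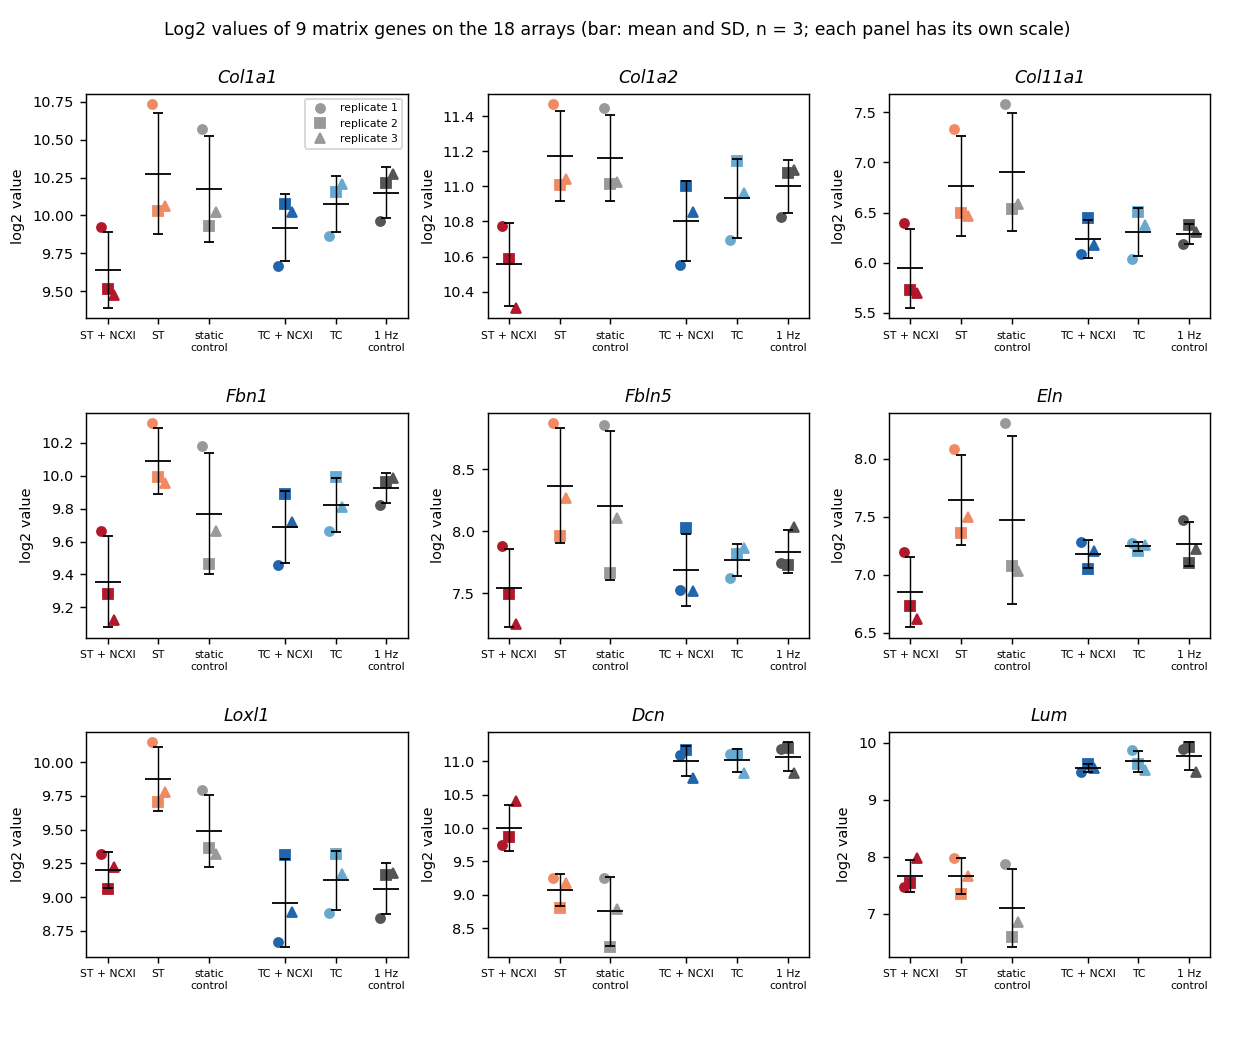
Log2 values of 9 matrix genes on each of the 18 arrays, with group mean and SD (n = 3) as bars and the replicate number as symbol. Each panel has its own scale. In the stretch experiment replicate 1 is the highest ST and static control array in every panel. Dcn lies between 8.22 and 10.40 on stretch arrays and between 10.75 and 11.21 on tachycardia arrays, and Lum between 6.58 and 7.98 and between 9.48 and 9.92.

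Whether the experiments differed was tested as a difference of differences over all 18 arrays. For the trigger, ST effect minus TC effect, no gene passed in either direction, against 2.61% of all clusters higher and 3.41% lower (lowest adjusted p = 0.83), and the medians were 0.12 for the matrix genes and -0.007 for all clusters. For the inhibitor, its effect in ST minus its effect in TC, 3 genes were lower, against 3.04% of all clusters, and 1 was higher, against 3.09%. They were Fbn1 at -0.60 (SE 0.26), Col5a3 at -0.53 (SE 0.24), Lama2 at -0.43 (SE 0.18) and Dcn at 0.93 (SE 0.33), with a lowest adjusted p of 0.78.

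For the remaining genes the difference between the inhibitor's effects was not shown: it was -0.48 (SE 0.30) for Col1a1, -0.49 (SE 0.25) for Col1a2, -0.75 (SE 0.39) for Fbln5 and -0.73 (SE 0.39) for Eln. The experiments differ in trigger, duration, surface and control at once, and the parts of these cannot be told apart.

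Between the control cultures, fitted on all 18 arrays, 18 matrix genes differed at the study threshold. The treatment comparisons were fitted on fewer arrays, so their counts are not directly comparable. ST with NCXI against ST had 14 in its main fit and 17 with all 18 arrays in the fit. Of all clusters, 14.6% had an unadjusted limma p under 0.05 between the controls, and 9.63% in ST with NCXI against ST. Static control cells, 24 h without pacing on collagen IV-coated membranes, were set against 1 Hz control cells, paced for 3 h on gelatin-coated dishes. With an adjusted p under 0.05 stood 7 of the 62 genes (11.3%), against 2.16% of all clusters, and all 7 were lower in the static control. At the study threshold 15 were lower, against 6.15% of all clusters, and 3 higher, against 7.43%. Culture surface, time, pacing and any difference in cell preparation between the experiments cannot be told apart here.

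Of the 4 proteoglycans 3 were lower, and Lum and Dcn were at the head of the list. Lum had 7.87, 6.58 and 6.85 in the static control, against 9.89, 9.92 and 9.49 in the 1 Hz control, a difference of -2.67 (SE 0.26, 6.34-fold lower, adjusted p = 0.000103). Dcn had 9.25, 8.22 and 8.78, against 11.19, 11.21 and 10.82 in the 1 Hz control (difference -2.32, SE 0.24, 4.99-fold lower, adjusted p = 0.000118). Both neighbouring genes were thus lower without overlap.

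Fmod, fibromodulin, had 9.29, 7.73 and 8.42 in the static control, against 10.20, 10.05 and 10.14 in the 1 Hz control (difference -1.65, SE 0.32, adjusted p = 0.016). Bgn differed by -0.05 (SE 0.09), with 12.17, 12.00 and 12.06 in the static control, against 12.13, 12.18 and 12.07 in the 1 Hz control. It was the proteoglycan of the 4 that did not pass.

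Thbs2, the matricellular thrombospondin-2, had 7.80, 7.17 and 7.32 in the static control, against 9.07, 8.73 and 8.77 in the 1 Hz control (difference -1.42, SE 0.17, 2.68-fold lower, adjusted p = 0.000418). Col15a1, which links basement membranes to fibrils, differed by -1.04 (SE 0.19, adjusted p = 0.010). The laminin chains Lama2 and Lamb1 differed by -0.69 (SE 0.13, adjusted p = 0.011) and -0.50 (SE 0.11, adjusted p = 0.026). All 4 were lower on every static control array than on any 1 Hz array.

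The other 8 lower genes passed the study threshold only. They were Mfap5 at -1.70 (SE 0.49), Lamb3 at -1.06 (SE 0.42), Lox at -0.87 (SE 0.29), Col3a1 at -0.64 (SE 0.24), Loxl4 at -0.49 (SE 0.15), Col6a1 at -0.49 (SE 0.19), Fn1 at -0.49 (SE 0.12) and Col4a1 at -0.31 (SE 0.12), of which Lox, Fn1 and Col4a1 did not overlap. Higher in the static control were Col11a1 at 0.61 (SE 0.28), Loxl1 at 0.43 (SE 0.18) and Col4a5 at 0.27 (SE 0.12), all wholly above. The type I collagen genes stood at small differences, Col1a1 at 0.02 (SE 0.21) and Col1a2 at 0.16 (SE 0.18), and Col3a1 and its neighbour Col5a2 (0.09, SE 0.22) did not move together. Postn differed by -0.56 (SE 0.30), Col8a1 by -0.51 (SE 0.29), Fbln5 by 0.37 (SE 0.28), Eln by 0.21 (SE 0.28), Fbn1 by -0.16 (SE 0.19), Loxl2 by -0.22 (SE 0.39), Lama5 by -0.23 (SE 0.14), Col4a2 by -0.14 (SE 0.10) and Sparc by 0.01 (SE 0.08), each overlapping and short of the threshold. Lamc1 at -0.19 (SE 0.10), wholly below, and Lamb2 at 0.12 (SE 0.08), wholly above, did not pass either.

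Without single arrays the number of genes with an adjusted p under 0.05 ran between 3 and 12. It was 12 without static control replicate 1, 3 without static control replicate 2 or replicate 3, and 4 without 1 Hz control replicate 1, and Lum, Dcn and Thbs2 were among them each time. Of all 36685 clusters, 1036, 228, 238 and 320 had such a limma p in these fits, in that order. Of the fibroblast markers outside the matrix list, 2 of 10 were lower, Dpt at -1.85 (SE 0.21, adjusted p = 0.000345) and Pdpn at -0.65 (SE 0.19), and the list's median was -0.18. The cardiomyocyte gene Myh6 differed by -1.33 (SE 0.18, adjusted p = 0.00123) and the endothelial Cdh5 by -1.26 (SE 0.21). Of the 10 leukocyte markers 5 had higher means and 5 lower ones (median -0.25), with Lyz2 (2.98, SE 0.67) and C1qa (0.52, SE 0.16) higher and Cd14 (-1.62, SE 0.28) lower at the study threshold. Their part in the matrix difference was not tested.

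**Figure D5:**
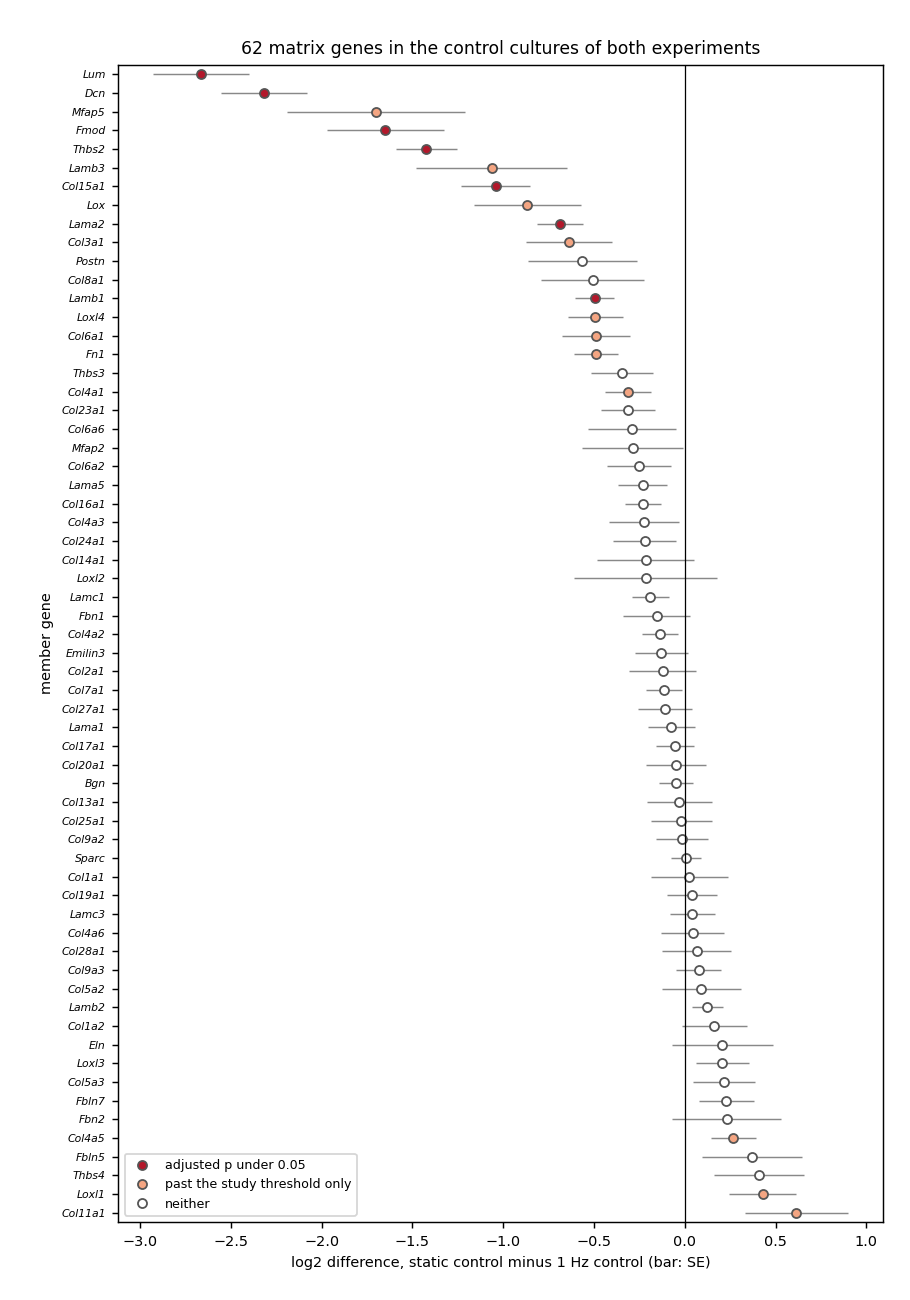
Each point is the log2 difference of 1 of the 62 matrix genes, static control minus 1 Hz control, with its SE as a bar, sorted by size. Dark points have an adjusted p under 0.05 and pale points passed the study threshold only. Lum, Dcn, Mfap5, Fmod and Thbs2 lie at the low end and Col11a1 and Loxl1 at the high end.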

How the data were processed

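The deposited table held log2 values per transcript cluster of the rat gene array, which the authors summarised and normalised in Partek Genomics Suite; the summarisation method is not given in the sources used here, and signal, not read depth, sets the precision, limited by 3 arrays per group. RNA was amplified before labelling. Symbols came from the platform's annotation, and members were chosen by symbol. Members and lists were chosen with earlier results of these data known. Differences were fitted with limma 3.58.1 in R 4.3.3 on the 9 arrays of an experiment, or all 18 between experiments, with Benjamini-Hochberg adjustment over 36685 clusters. The study threshold was an unadjusted limma p under 0.05 and at least 1.2-fold, a reading of the criteria in the legend of the paper's microarray figure. For the arrays the paper's supplement names a two-way ANOVA with Benjamini-Hochberg correction. Named were a list of 23 measured genes in the main comparisons and, per comparison, up to 5 highest and 5 lowest genes brighter than the median whose groups did not overlap, and all with an adjusted p under 0.05; further genes past the study threshold were named after their values were seen. Where many of the 23 overlapped near 0 in TC they are given as a range. In the comparisons of TC with NCXI and in the differences of differences, only some of the 23 are given.

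Replicate numbers come from the sample titles. Correlations of same-numbered arrays' deviations were 0.295, 0.124 and 0.242 for ST against control and 0.252, 0.228 and 0.13 for TC with NCXI against TC. In the other comparisons at least 1 correlation was 0.1 or less. A limit of 0.1 is a choice and does not decide which arrays are paired. The main fits of all comparisons left the replicate number out, and the replicate block was an alternative. Arrays of a group correlated at 0.978 to 0.988, and no 2 arrays of a group shared more than 20 identical values. Identical values were counted only between arrays of the same group. The fit was tested on simulated data. Alternatives were a replicate block, other arrays in the fit, the methods' t-test, a two-way ANOVA, limma's trend and robust options, a filter on dim clusters, clusters with 1 symbol, median centring, quantile normalisation, a 1.5-fold limit and leaving out each array.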

Additional observations from a re-analysis of the deposited data

Results flagged for a closer look

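In 4 matrix genes the effect of the inhibitor differed between the experiments by the test of the difference itself, at an unadjusted limma p under 0.05 and at least 1.2-fold, and none had an adjusted p under 0.05 (lowest 0.78). In this fit 1 of the 62 genes was higher, against 3.09% of all clusters, and 3 were lower, against 3.04%, so the count was near that over all clusters. With the replicate block as an alternative 16 were lower, against 4.94% of all clusters, and 1 was higher, against 4.24%. The log2 difference between the effect in ST and the effect in TC was 0.93 for Dcn, -0.60 for Fbn1, -0.53 for Col5a3 and -0.43 for Lama2. In Dcn all 3 ST with NCXI arrays lay above the 3 ST arrays, while its TC with NCXI arrays (11.10, 11.17 and 10.75) overlapped those of TC (11.12, 11.11 and 10.82). In Fbn1, Col5a3 and Lama2 all 3 ST with NCXI arrays lay below the ST arrays, and those of TC with NCXI overlapped TC. Leaving out 1 array moved the number of such genes between 1 and 10, and the shares over all clusters in those fits are not given. With groups of 3 arrays, no single array was tested as an outlier.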

How the results depend on the processing

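The number of matrix genes past the study threshold moved with the processing in most comparisons. Where the share over all clusters in a setting is given neither here nor above, the count cannot show an excess over it. For ST against static control it was 2, and it became 9 with the replicate block, all higher, against 4.35% of all clusters. It was 8 with the two-way ANOVA, 1 with the methods' t-test, 5 with clusters of 1 symbol only, 5 with arrays centred on their median and 0 at 1.5-fold. Leaving out 1 array gave 0 to 13, and leaving replicate 1 out of every stretch group, a setting chosen after seeing the data, gave 11. For ST with NCXI against ST, 13 lower and 1 higher, leaving out 1 array gave 6 to 14 lower and 1 to 2 higher. Leaving replicate 1 out of every group gave 15 lower, against 4.71% of all clusters, and 3 higher, against 4.61%. The replicate block gave 17 lower, against 6.21% of all clusters, and 1 higher, against 5.48%. For ST with NCXI against static control, 7 became 17 with the replicate block and 11 with all 18 arrays in the fit. The number was 4 with the t-test, 12 with the ANOVA and 4 at 1.5-fold, 4 to 10 without 1 array and 13 without replicate 1 in every group. With the block 13 were lower, against 6.89% of all clusters, and 4 were higher, against 5.66%. Same-number correlations were 0.091, 0.145 and 0.164 for ST with NCXI against ST, and 0.123, 0.006 and 0.153 for ST with NCXI against static control. They do not settle whether these arrays are paired, so the block is an alternative there.

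For TC against the 1 Hz control, 1 became 0 with the replicate block, with 2 groups in the fit, the t-test, the ANOVA, limma's trend, quantile normalisation and 1.5-fold, and 2 with all 18 arrays, with 0 to 2 without 1 array. For TC with NCXI against TC, 2 became 1 with all 18 arrays, with 2 groups and with the t-test, and 0 at 1.5-fold, 1 to 3 without 1 array, and the median of -0.03 ran from -0.0375 to 0.0036. For TC with NCXI against the 1 Hz control, 2 became 5 with all 18 arrays, 1 with the t-test, 1 with the ANOVA and 0 at 1.5-fold, and 1 to 3 without 1 array.

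For the difference of the triggers, 0 became 6 with the replicate block, 1 with limma's trend, 1 with clusters of 1 symbol and 2 with centred arrays, 0 to 9 without 1 array, with a median from -0.0112 to 0.2522. The shares over all clusters in these settings are not given. For the difference of the inhibitor effects, 4 became 17 with the replicate block and 2 at 1.5-fold, and 1 to 10 without 1 array. With the block 16 were lower, against 4.94% of all clusters, and 1 was higher, against 4.24%. Between the controls, 3 higher became 1 with quantile normalisation and 1 at 1.5-fold, 0 to 4 without 1 array, and 7 with an adjusted p under 0.05 became 3 to 12. Over single genes 337 values kept their side of the threshold, 86 lost it and 0 reversed; the causes were not tested. A mean over several clusters per gene was not run, since each gene had 1. The 3 arrays per group limit the precision.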
